A study of Mus musculus with 42 samples.

Results

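Embryos injected with a Nanog morpholino were collected 20 h and 44 h after injection, and the change between those times was measured for all genes. These are 6 arrays (3 at each time) of the 42 arrays of the series, chosen by their titles. The question, as the design puts it, was which changes over time still happen when Nanog is blocked. Fertilized embryos of the hybrid mouse strain B6D2F1 were injected with the oligomer at the 1-cell stage and cultured in Human Tubal Fluid with serum supplement. Embryos given a control morpholino, whose target sequence occurs in neither genome nor transcriptome of the mouse, and uninjected embryos were collected at the same hours in the same experiment, 3 arrays per group and time, and serve as the reference groups. These 18 arrays hold RNA of preimplantation embryos of this strain in this medium, and the other 24 arrays of the series belong to separate experiments on Oct4 and Sall4. The labels give no stage beyond preimplantation and no number of embryos per array, and they do not say whether the oligomer blocks translation or splicing of the Nanog mRNA. Titles call the 3 arrays of a group biological replicates without saying whether these are separate collections, so p-values take in only the spread between arrays, which may be technical.

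Nanog is a homeodomain transcription factor of the pluripotency network, which in the blastocyst marks the cells that form the embryo proper and works beside Oct4 (gene Pou5f1), Sox2 and Sall4. Morpholinos are oligomers that pair with an mRNA and keep it from being translated or spliced, often without altering how much of it there is, so the array level of Nanog is no test of the block. The hours after fertilization are the time in which the embryo degrades the mRNA stored in the egg and starts to transcribe its own genome.

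An Affymetrix array measures each transcript as the brightness of 1 or more probe sets, given here as an intensity on a linear scale. A level cannot be compared between genes, because probe sets differ in brightness, and in whole embryos fewer cells and less RNA per cell cannot be told apart. Changes are differences of log2(intensity + 16) between 44 h and 20 h, and the change of dim genes is understated. Of 18193 genes on the array, 12747 passed the brightness filter and were tested with limma. A gene is called changed where its p-value, adjusted over all 12747 genes by the Benjamini-Hochberg method, is under 0.05, and SE is the standard error of a change in that fit.

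Array medians of the 18 arrays lay between 193 and 227. Replicate arrays of Nanog morpholino embryos correlated at 0.928 to 0.937 at 20 h and at 0.913 to 0.916 at 44 h, the latter lower than in the reference groups at 44 h (0.932 to 0.949). The ratio of 3′ to 5′ probe sets of Gapdh, a sign of RNA integrity, was 2.05 to 4.43 at 20 h and 1.70 to 3.66 at 44 h with the Nanog morpholino, and 2.12 to 5.42 on the reference arrays. All 10 markers of the oocyte and early embryo were above the filter. Of 16 granulosa and cumulus cell markers on the array 6 passed it, and of 12 blood, stroma and fibroblast markers 5 did. Hsd3b1 (means of 1.23 and 2.63) and Tnfaip6 (5.02 and 1.98) were near the floor in Nanog morpholino embryos at both times. Summed granulosa and cumulus marker levels without Inhbb were 6376 to 8229 at 20 h and 8430 to 10353 at 44 h with the Nanog morpholino, against 7003 to 8734 and 9974 to 11508 with the control morpholino and 6523 to 10844 and 10192 to 11632 in uninjected embryos. The sums were higher at 44 h without overlap in both injected groups and overlapped between the times in uninjected embryos, and their part in the results was not tested. The largest share of that sum came from Nr5a2 and Amhr2, of which Nr5a2 is also a gene of early embryos. Summed blood, stroma and fibroblast marker levels were 1619 to 2451 at 20 h and 1991 to 6149 at 44 h with the Nanog morpholino. Pecam1, which the inner cell mass also expresses, was the brightest of them (means of 748 and 2650).

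The Nanog mRNA itself rose from near the floor in embryos that carried the Nanog morpholino. Its intensities were 46.9, 58.6 and 144 at 20 h and 3086, 1412 and 3562 at 44 h. In control morpholino embryos they were 39.7, 103 and 191 and then 3825, 3718 and 3939, and in uninjected embryos 138, 433 and 419 and then 3240.2, 4371 and 3963. The 2 times do not overlap in any group, and the log2 change was 4.79 with the Nanog morpholino (SE 0.524, adjusted p = 6.62e-05), 5.11 with the control morpholino and 3.63 in uninjected embryos. The second of the Nanog morpholino arrays at 44 h lies apart from the other 2. The difference from the control change was -0.32 (SE 0.741, adjusted p = 0.911) and that from the uninjected change 1.16 (adjusted p = 0.537), neither past the threshold.

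The stretch of 250 bases before the Nanog start is shown because the mRNA of the blocked gene rose. It is RefSeq sequence of GRCm38.p6, chr6:122707239-122707488, plus strand, before the upstream one of its 2 listed starts, with 2 motifs in capitals that a search of both strands found: the octamer letters ATGCAAA (here as their reverse complement), bound by Oct4, and the letters CATTGT (here as their reverse complement), bound by Sox factors. They begin 75 and 67 bases before the start and do not overlap.

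Nanog: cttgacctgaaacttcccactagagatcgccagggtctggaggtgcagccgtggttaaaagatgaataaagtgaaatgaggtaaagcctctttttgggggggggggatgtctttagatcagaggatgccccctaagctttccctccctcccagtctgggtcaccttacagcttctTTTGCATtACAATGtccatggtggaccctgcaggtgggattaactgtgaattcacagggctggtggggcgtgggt

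The octamer letters occur in 3.69% and the Sox letters in 8.09% of the 10308 tested genes with a promoter in the RefSeq table. A match is a description of the letters and shows no binding.

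Pou5f1, which encodes Oct4, fell with the Nanog morpholino. Its intensities were 5473, 5236 and 6409 at 20 h and 3394, 4722 and 3988 at 44 h, without overlap (log2 change -0.51, SE 0.152, adjusted p = 0.0272). With the control morpholino they were 5294, 4769 and 5261 and 6913, 6388 and 6183, a change of 0.35 (adjusted p = 0.105), and in uninjected embryos the change was 0.28 (adjusted p = 0.179). Without replicate 1 or 3 at either time the call with the Nanog morpholino was lost (adjusted p = 0.0523 to 0.107). The 3 groups did not change to the same side of 0, but the difference itself did not pass the threshold, at -0.85 against the control change (adjusted p = 0.123) and -0.79 against the uninjected change (adjusted p = 0.128). Sall4, a zinc finger partner of both factors, had intensities of 8094, 7782 and 9123 and then 7844, 7214 and 9006, with overlap, and a change of -0.06 (adjusted p = 0.803). Its sign turns with the scaling of the arrays.

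Over all genes, 1279 rose (10.0% of those tested) and 1699 fell (13.3%) between 20 h and 44 h with the Nanog morpholino. With the control morpholino 1177 rose (9.23%) and 2519 fell (19.8%), and in uninjected embryos 1563 rose (12.3%) and 2489 fell (19.5%). Of the 2978 genes called with the Nanog morpholino, 2863 had no overlap between the arrays of the 2 times, as had 4903 (38.5%) of all genes tested. When only the 6 Nanog morpholino arrays estimate the spread, 596 rose and 904 fell. The split between rises and falls depends on the scaling in all 3 groups. Under quantile normalization 1634 rose and 1540 fell with the Nanog morpholino, against 1887 and 1941 with the control morpholino and 2315 and 2141 in uninjected embryos. Centring each array on its median gave 1451 rises and 1549 falls with the Nanog morpholino, 1802 rises and 1917 falls with the control morpholino and 2104 and 2153 in uninjected embryos. Scaling to a trimmed mean gave 1571 and 1533 with the Nanog morpholino, 1617 and 2117 with the control morpholino and 1925 and 2291 in uninjected embryos. The median change of all genes was -0.01 with the Nanog morpholino and -0.11 with the control morpholino as deposited, and in uninjected embryos -0.01. After median centring these were 0.03, 0.08 and 0.12, a shift of more than 0.1 in the reference groups to which their changes are relative. Of 129 genes named here that were called with the Nanog morpholino, 29 lost the call when 1 of the 6 arrays was left out, at an adjusted p of up to 0.183, and 100 kept it. The 29 are Bad, Cdkn2c, Cnot6l, Dnmt3b, Dusp4, Eef2k, Fgfr2, Fgfr3, Fos, Gga2, Khdc3, Kit, Klf6, Ldhb, Mcu, Nid2, Nobox, Pold2, Pou5f1, Psmb6, Rb1, Rpl14, Snrpb, Sox2, Tcstv1, Tead4, Tfap2a, Txnip and Zgpat. The adjusted p passed 0.05 without replicate 3 of 44 h for 23 of them.

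Of the 12 largest rises with the Nanog morpholino, 11 were also called up in both reference groups, and Rhov was called in neither. Foxa1, a forkhead factor that opens chromatin in endoderm, went from 17.8, 34.8 and 98.9 to 4136, 4224 and 4482 (log2 change 6.20, SE 0.424, adjusted p = 2.15e-06), and with the control morpholino from 64, 53.9 and 27.4 to 3831, 4178 and 3508. Every Foxa1 array at 44 h was far above every array at 20 h in both groups. Acadl, the mitochondrial long-chain acyl-CoA dehydrogenase of fatty acid oxidation, went from 49.5, 41.7 and 57.7 to 1748, 2047 and 2753 (log2 change 5.05), and its changes in control morpholino and uninjected embryos were 5.73 and 5.62. Inhbb, the beta B subunit of activins and inhibins, went from 21.6, 12.3 and 20.9 to 1129, 1146 and 639 (log2 change 4.81, against 4.63 and 4.16). Plekhg3 rose by 4.86, and Nek9, a kinase of the mitotic spindle, by 5.03, with 1 of its arrays at 20 h far above the other 2 (13.6, 621 and 33). Another probe set of Acadl changed by 0.21 and another of Plekhg3 by 0.07 with the Nanog morpholino. Ccdc43 (5.18), Tmigd1 (5.11) and the uncharacterised transcripts 4930550L24Rik (5.26) and 4930519G04Rik (5.25) also rose, all called in both reference groups.

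Rhov and Ccr4 had lower changes over time in the reference groups. In uninjected embryos the change was 3.99 for Ccr4 and 0.76 for Rhov. Ccr4, a chemokine receptor, went from 14.8, 13 and 30.1 to 3209, 1867 and 2494 with the Nanog morpholino (log2 change 6.17, SE 0.637, adjusted p = 4.18e-05), and from 444, 157 and 56.9 to 1528, 1087 and 449 with the control morpholino (2.36). Rhov, a small GTPase, went from 12.1, 7.08 and 111 to 2164, 678 and 1290.1 (log2 change 4.85, SE 0.841, adjusted p = 0.00129), while with the control morpholino its values were 569, 1138 and 1337 and then 327, 314 and 305, a change of -1.55 that was not called. At 20 h all 3 Nanog morpholino arrays lie below all 3 control morpholino arrays for both genes. The difference from the control change was 3.80 for Ccr4 (adjusted p = 0.11) and 6.40 for Rhov (adjusted p = 0.0524), and neither passed the threshold.

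All 12 of the largest falls with the Nanog morpholino were called down in both reference groups. Acot3, a peroxisomal acyl-CoA thioesterase, went from 3021, 2237 and 2606 to 16.6, 100.3 and 2.69 (log2 change -5.98, SE 0.546, adjusted p = 2.15e-05), and its changes in the reference groups were -6.72 and -6.36. F13a1, the A subunit of coagulation factor XIII, went from 2652, 1609 and 5066 to 39.6, 32.2 and 45.6 (log2 change -5.68), so that every array at 44 h was near the floor. Gpnmb, a membrane glycoprotein, went from 1644, 1933 and 2416 to 14.9, 24.1 and 28.6 (log2 change -5.71). Tgfb3, a ligand of the TGF-beta family, fell by 4.84 on the log2 scale, and Pramel18 and Pramel27, members of the PRAME family found in germ cells and early embryos, changed by -4.96 and -4.92. Hmgcll1 (-5.30), an HMG-CoA lyase, Timd4 (-4.85), a receptor for phosphatidylserine, Siglecf (-5.13), a lectin that binds sialic acid, Bivm (-5.29), Gm15496 (-5.43) and 9930012K11Rik (-4.94) make up the rest. Siglecf fell least in the reference groups, at -2.27 and -3.05.

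**Figure D1:**
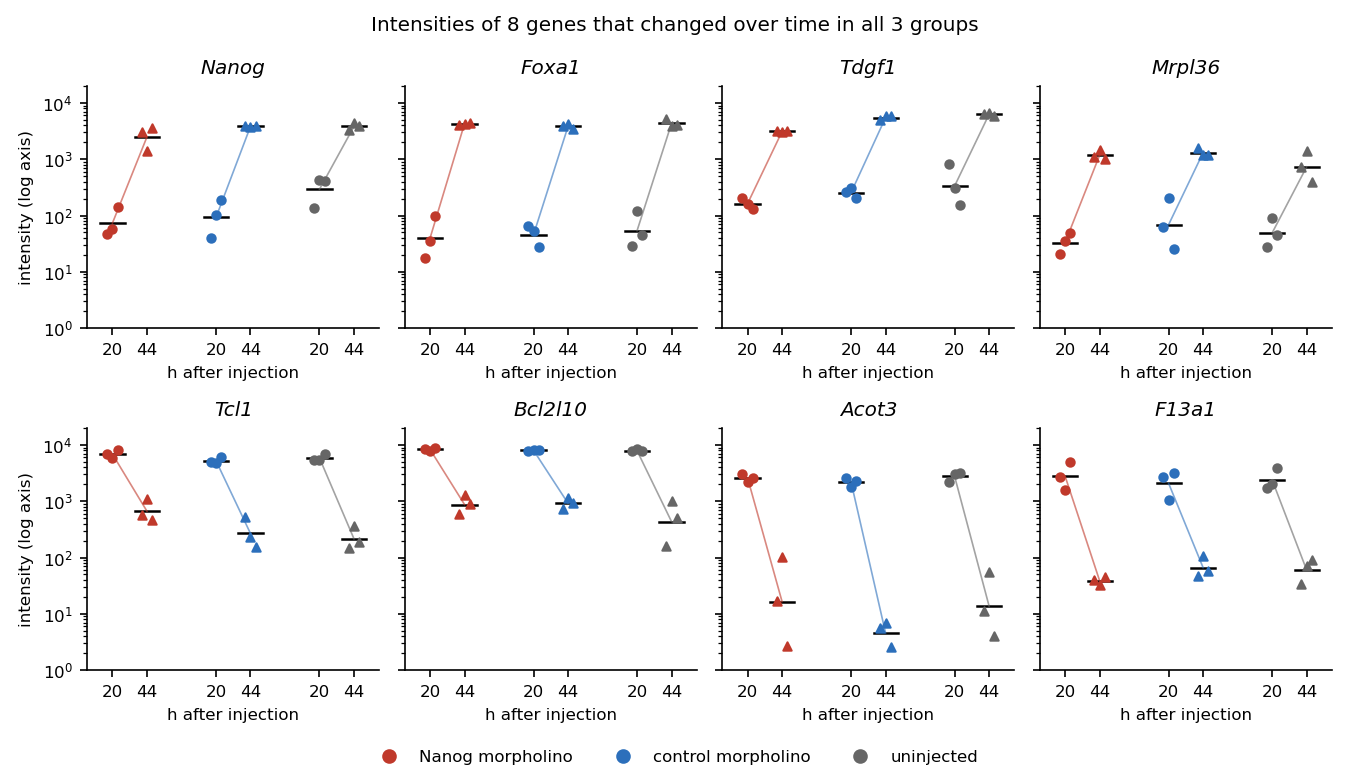
Intensity of 8 genes on each array, on a log axis, by hours after injection. Circles are arrays of 20 h, triangles arrays of 44 h, and black bars geometric means of 3 arrays. Nanog, Foxa1, Tdgf1 and Mrpl36 rose and Tcl1, Bcl2l10, Acot3 and F13a1 fell in all 3 groups, without overlap between times.

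Most changes that both reference groups shared were also found with Nanog blocked, and nearly all kept their direction. The reference groups share no array with the Nanog morpholino contrast, though all arrays enter the estimate of the spread. Of 862 genes called up in both, 540 were called up with the Nanog morpholino, which is 62.6% of those 862, against 10.0% of all genes tested. They are 42.2% of the 1279 genes that rose with the Nanog morpholino, against 6.76% of all genes that were called up in both reference groups. Of the 862, 837 had a change above 0 and 0 were called down. Of 1940 genes called down in both reference groups, 1131 were called down with the Nanog morpholino, 58.3% of those 1940, against 13.3% of all genes tested. They are 66.6% of the 1699 that fell, against 15.2% of all genes that were called down in both reference groups. Of the 1940, 1862 had a change below 0 and 2 were called up. Of the 2 sets, 322 rises and 809 falls were not called with the Nanog morpholino. Among these, 123 rises and 324 falls had an unadjusted p under 0.05 in the same direction. When each group's own arrays estimate its spread, the shared counts are 206 rises and 525 falls. With that spread 596 genes rose and 904 fell with the Nanog morpholino. In the references 1075 rose and 2084 fell with the control morpholino, and 1132 and 2056 in uninjected embryos. How many of these both references shared was not counted, so whether most were found again is not known for this setting. Quantile normalization raises the shared rises to 891.

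Falls were shallower with the Nanog morpholino than with the control morpholino. Genes were taken as called in uninjected embryos, by a change measured on uninjected arrays, while the brightness filter and the spread behind the call also used the injected arrays. The 2489 genes that fell in uninjected embryos (median change -1.81) had a median of -1.01 with the Nanog morpholino and -1.49 with the control morpholino. Called down were 49.4% of them with the Nanog morpholino and 77.9% with the control morpholino, and 73.8% fell less with the Nanog morpholino than with the control. Array by array, the median of these genes at 44 h lay 0.94, 0.87 and 1.05 under the mean of 20 h with the Nanog morpholino. With the control morpholino it lay 1.39, 1.61 and 1.24 under, so the injected groups do not overlap. The 1563 genes that rose in uninjected embryos (median 1.40) had medians of 0.92 and 0.98, and by array 0.78, 0.79 and 1.15 with the Nanog morpholino against 0.93, 0.96 and 0.99, which overlap. An exact permutation test of 3 arrays against 3 cannot give a two-sided p under 0.1, so the arrays' values stand without one. The median over the falling genes of the Nanog change minus the control change was 0.40, while over all genes it was 0.12. Median centring, quantile normalization and trimmed mean scaling gave 0.26, 0.27 and 0.34 for the falling genes, and -0.02, 0.01 and 0.06 for all genes. For the rising genes it was -0.05 as deposited and -0.19, -0.17 and -0.11 under these 3 scalings, so that rises too were smaller in the median with the Nanog morpholino. The 44 h arrays of the Nanog morpholino also had the lowest replicate correlations, and the part of this in the shallower falls was not tested.

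**Figure D2:**
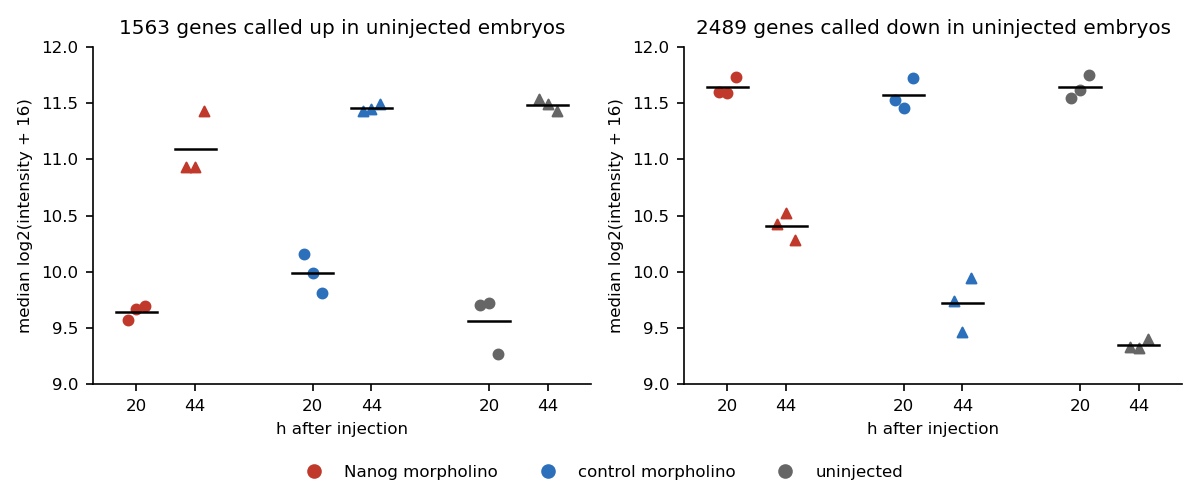
Median log2(intensity + 16) on each array over the genes called up (left, 1563) or down (right, 2489) in uninjected embryos, by group and hour, with the mean of 3 arrays as a bar. For the falling genes, the 3 Nanog morpholino arrays at 44 h (10.28 to 10.52) sit above the control morpholino arrays (9.47 to 9.95).

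Most tested transcripts of the oocyte's store fell in each of the 3 groups. The counts of this list and of those below are to be read beside the shares of all genes tested. With the Nanog morpholino 10.0% of all genes tested rose and 13.3% fell. With the control morpholino 9.23% rose and 19.8% fell, and in uninjected embryos 12.3% and 19.5%. Of 31 genes tested from a list of maternal oocyte transcripts, 0 rose and 22 fell (median change -1.99, against -0.01 over all genes), with 22 falls with the control morpholino (median -1.29) and 21 in uninjected embryos (-1.85). Gene by gene, the median of the Nanog change minus the control change was 0.3, and minus the uninjected change 0.36. For 17 of the 31 genes the Nanog morpholino change was nearer to 0 than both reference changes. Tcl1, a coactivator of the kinase Akt, went from 6879, 5794 and 8093 to 572, 1087 and 471 (log2 change -3.34, SE 0.413, adjusted p = 0.000146), against 5000.1, 4716 and 6124 and then 534, 231 and 154 with the control morpholino. Bcl2l10, an oocyte member of the Bcl2 family, went from 8334, 7922 and 8794 to 584, 1292 and 886 (log2 change -3.23; control change -3.10). All arrays of both genes were lower at 44 h, by a wide margin. Wee2, the oocyte kinase that holds meiotic arrest, changed by -3.50, and Kit, the receptor of stem cell factor, by -1.99.

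Other maternal genes gave a range of values beside the references. Tcl1b3, of the Tcl1 family, had intensities of 2902, 2254 and 680.2 at 44 h with the Nanog morpholino and 472, 308 and 357 with the control morpholino (changes -2.22 and -4.11), and the difference had an adjusted p of 0.218. Dazl, a germ cell RNA-binding protein, changed by -1.85 with the Nanog morpholino and by -3.29 and -3.74 in the reference groups (adjusted p of the differences 0.188 and 0.0924). Tcl1b4 fell with 1 array at 44 h far above the others (432, 1749 and 25.3). Fbxw13, an F-box gene of a family with close copies, fell from 1334, 458 and 512 to 13.3, 72.3 and 16.4 with the Nanog morpholino (-3.99, adjusted p = 0.00405) and was not called in the reference groups (-0.15 and -1.28). Nobox, an oocyte homeobox gene, was likewise called with the Nanog morpholino (-2.26, adjusted p = 0.0494), with changes of -0.50 and -1.05 elsewhere.

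Of 9 genes tested for factors that the oocyte secretes, 2 fell with the Nanog morpholino, 7 with the control morpholino and 8 in uninjected embryos, and the medians were -0.77, -1.41 and -1.53. Bmp15, a growth factor of the oocyte, went from 7856, 7784 and 7933 to 4343, 3689 and 2567 (-1.18, adjusted p = 0.00028), and Bmp6 by -2.64. Gdf9, the partner of Bmp15, had 4896, 4549 and 5466 and then 3724, 3594 and 3803 with the Nanog morpholino (-0.42, adjusted p = 0.106), and 4429, 4395 and 4716 and then 1569, 1771 and 1899 with the control morpholino (-1.37, adjusted p = 0.000131). At 44 h all 3 Nanog morpholino arrays of Gdf9 lie above all control arrays, and the difference of the changes was 0.95, adjusted p = 0.14. Zp2 of the zona pellucida changed by -0.77 (adjusted p = 0.0949) and by -1.12 and -1.43 in the reference groups, where it was called. Oosp2, a secreted oocyte protein, changed by -1.13 (adjusted p = 0.412), against -4.34 and -3.40.

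The Nlrp genes and their partners in the complex under the oocyte's cell membrane fell in 9 of 15 cases with the Nanog morpholino, 1 rising, against 11 falls in each reference group (medians -1.25, -1.90 and -1.73). Nlrp4e and Nlrp4a, of a cluster of similar copies, changed by -3.27 and -3.16. Ooep (-1.25, adjusted p = 0.153) and Nlrp5 (-0.32, adjusted p = 0.583), core members of the complex, were not called. Khdc3, another member, rose from 333, 306 and 494 to 668, 2082 and 2568 (2.00, adjusted p = 0.0116), and from 601, 264 and 278 to 4726, 4279 and 4776 with the control morpholino (3.64). Of 27 genes that store or decay maternal mRNA, 7 fell and 1 rose, against 11 falls and 0 rises in each reference group. Pan2 (-1.81) and Cnot6l (-0.72), which shorten poly(A) tails, fell. Btg4, the adaptor that brings the CCR4-NOT deadenylase to maternal mRNA, had values of 7108, 8282 and 5209.8 at 44 h with the Nanog morpholino and 4897, 1666 and 5369 with the control morpholino, with changes of -0.94 (adjusted p = 0.0551) and -1.85. The decapping enzyme Dcp2 (-1.09, adjusted p = 0.108) and the mRNA storage protein Ybx2 (-1.11, adjusted p = 0.126) were not called, and changed by -2.14 and -2.82 with the control morpholino.

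Genes that are transiently active at the 2-cell stage moved less far from 0 in the median with the Nanog morpholino, a description without a test. Of 19 tested, 4 fell and 2 rose with the Nanog morpholino (median -0.25), 9 fell and 3 rose with the control morpholino (-0.91), and 10 fell and 3 rose in uninjected embryos (-1.20). Rfpl4b, a gene of the ret finger protein-like family, is the member whose difference passed the test. Its intensities were 5898, 6291 and 7171 at 20 h and 3629, 1203 and 1496 at 44 h with the Nanog morpholino. They were 5729, 5284 and 6706 and then 104, 126 and 162 with the control morpholino, and 6015, 7326 and 7461 and then 168, 185 and 176 in uninjected embryos. The arrays of 20 h overlapped between the groups, and at 44 h every Nanog morpholino array lay above every reference array. The change was -1.77 with the Nanog morpholino and -5.35 with the control morpholino, a difference of 3.58, SE 0.431, adjusted p = 0.00612. Tcstv1 (-1.08 against -1.49) and the deubiquitinase Usp17la (-2.49 against -3.24) fell in both. Zfp352 (-1.41, adjusted p = 0.315) and Arg2 (-1.45, adjusted p = 0.0553), the mitochondrial arginase, were not called with the Nanog morpholino, and changed by -3.56 and -3.42 with the control morpholino. Eif1a, an initiation factor, rose in all groups (0.90, 0.90 and 1.03).

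Among genes of oxidative phosphorylation, ribosomal proteins, translation factors and the proteasome, more rose than fell in each of the 3 groups. Of 81 genes of oxidative phosphorylation 28 rose and 3 fell (median 0.65), against 32 and 3 with the control morpholino (0.54) and 43 and 1 in uninjected embryos (0.82). Ndufa5 of complex I went from 981, 1169 and 296 to 4152, 4596 and 5175 (2.69), and Atp5e of the ATP synthase from 90.6, 725 and 348 to 1857, 1745 and 3393 (2.87). Uqcrq of complex III rose by 2.02, though another of its probe sets had the opposite sign. Cox6b2, an isoform of germ cells, fell (-1.88). Ndufs4 (1.15, adjusted p = 0.213) and Sdha (-0.42, adjusted p = 0.356), of complexes I and II, were called up in both reference groups and not with the Nanog morpholino. Of 2 other probe sets of Ndufs4, 1 was near 0 with the opposite sign (-0.02). For Sdha the Nanog morpholino arrays read 3275, 3846 and 3698 and then 2981, 1902 and 3416, with overlap, against 2815, 1243 and 2627 and then 4802, 4587 and 4646 with the control morpholino, and 1 of its 2 other probe sets had the opposite sign.

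Ribosomal protein genes were counted by compartment. Of 75 mitochondrial ones 27 rose and 2 fell (median 0.81), against 25 and 3 with the control morpholino (0.53) and 36 and 2 in uninjected embryos (0.72). Mrpl36 went from 20.7, 35.4 and 49.5 to 1091, 1488 and 1009 (log2 change 4.58, SE 0.548, adjusted p = 0.000116). Mrps12 went from 683, 25.5 and 211 to 2467, 1067 and 2805 (log2 change 3.39), with 1 array of 20 h above the others, and Mrpl58, which releases stalled chains, rose by 3.71. Of 46 cytosolic ribosomal proteins 26 rose and 0 fell (median 0.55), against 23 and 31 rises and 0 falls in the reference groups (0.43 and 0.62). Rpl12 went from 564, 395 and 135 to 1146, 1949 and 2022 (2.34), and Rpl14 rose by 1.98. Ribosomal protein genes have many processed copies in the genome, so their probe sets may read more than 1 locus.

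Promoters of genes that rose were searched because they moved together. The search covered 5 sets of letters on both strands in the 250 bases before each start: CCGGAAG of the ETS factors, CCAAT of NF-Y, TATAAA of the TATA box, and the octamer and Sox letters above. None of them lies inside another, and matches that overlap by an end were each counted. Shares are of genes with a listed promoter, and a gene counts as a match where any of its listed starts has the letters. The ETS letters were found for 19.7% of 1037 such genes that rose with the Nanog morpholino, 11.8% of 1395 that fell, and 14.7% of 10308 tested. For the rises with the control morpholino the share was 13.6% of 953, and over all 27025 genes of the RefSeq table it was 7.83%. In mitochondrial ribosomal proteins it was 25.8% (17 of 66), and in maternal oocyte transcripts 3.85% (1 of 26). The CCAAT letters were in 37.7% of the promoters of risen and in 41.7% of those of fallen genes, against 40.4% of all tested. TATAAA was in 10.1%, 8.39% and 8.32%. The octamer letters were in 2.8%, 2.87% and 3.69% of these promoters, and the Sox letters in 8.29%, 7.46% and 8.09%. The median number of CG dinucleotides, taken as the highest among a gene's listed starts, was 15 for risen and 18 for fallen genes. It was 16.5 for mitochondrial ribosomal and 3 for maternal oocyte genes, against 16 for all tested. These shares are descriptions without a test. The following 3 promoters show the kinds met (GRCm38.p6, RefSeq, with matches in capitals): Mrps12 (chr7:28741822-28742071, minus strand) holds the CCAAT letters at 4 places, Mrpl27 (chr11:94653541-94653790, plus strand), which rose by 1.91 with the Nanog morpholino, holds the ETS letters 55 bases before its start, and Tcl1 (chr12:105222738-105222987, minus strand) holds none of the 5.

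Mrps12: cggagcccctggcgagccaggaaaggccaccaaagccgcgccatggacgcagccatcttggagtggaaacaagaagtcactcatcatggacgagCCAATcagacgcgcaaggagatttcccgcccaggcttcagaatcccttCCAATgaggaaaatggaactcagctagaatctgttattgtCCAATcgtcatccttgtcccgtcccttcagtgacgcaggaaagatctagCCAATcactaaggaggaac
Mrpl27: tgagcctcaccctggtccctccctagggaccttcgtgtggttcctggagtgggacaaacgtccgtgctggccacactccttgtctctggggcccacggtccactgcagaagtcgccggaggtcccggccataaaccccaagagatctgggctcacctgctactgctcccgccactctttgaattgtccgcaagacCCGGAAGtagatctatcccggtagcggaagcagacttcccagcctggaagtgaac
Tcl1: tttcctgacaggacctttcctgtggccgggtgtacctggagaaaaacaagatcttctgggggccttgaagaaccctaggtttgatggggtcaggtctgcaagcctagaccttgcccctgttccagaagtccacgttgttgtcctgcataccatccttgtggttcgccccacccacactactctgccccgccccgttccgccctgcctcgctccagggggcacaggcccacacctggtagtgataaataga

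Of 46 proteasome genes 24 rose and 3 fell (median 0.66), against 18 and 5 with the control morpholino (0.42) and 25 and 5 in uninjected embryos (0.56). Psmc4, an ATPase of the regulatory particle, went from 2283, 2911 and 1935 to 5867, 6124 and 5543 (1.31, adjusted p = 0.001), and Psmb6, a catalytic subunit, rose by 1.38. Psmb11, the subunit of the thymus, fell (-1.55) at low level. Of 59 translation factors 15 rose and 3 fell, against 14 and 5 with the control morpholino and 20 and 5 in uninjected embryos. Eif3d rose by 2.13, and Eef2k, the kinase that brakes elongation, went from 8583, 6930.4 and 8743 to 835, 1902 and 85.4 (-3.88). Of 15 chaperonin genes 4 rose, among them Cct4 (1.09, with 2 of 6 other probe sets of opposite sign), and 0 fell. Of 47 splicing genes 8 rose and 2 fell, with Snrpb at 1.67. Of 49 genes of ribosome assembly in the nucleolus 7 rose and 0 fell with the Nanog morpholino, 1 rose and 2 fell with the control morpholino, and 5 rose and 3 fell in uninjected embryos. Wdr12 went from 1056, 3288 and 2564 to 4989, 4491 and 7098 (1.38, adjusted p = 0.00691), with lower values at 20 h than the control arrays (4104, 5234 and 4959), and the helicase Ddx21 rose by 0.58 against 0.19 with the control morpholino. In uninjected embryos Wdr12 and Ddx21 were both called up, by 0.93 and 0.48 (adjusted p of 0.0377 and 0.0169). The difference from the control change was not past the threshold for either gene (adjusted p of 0.571 and 0.436), nor was that from the uninjected change (0.726 and 0.875).

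**Figure D3:**
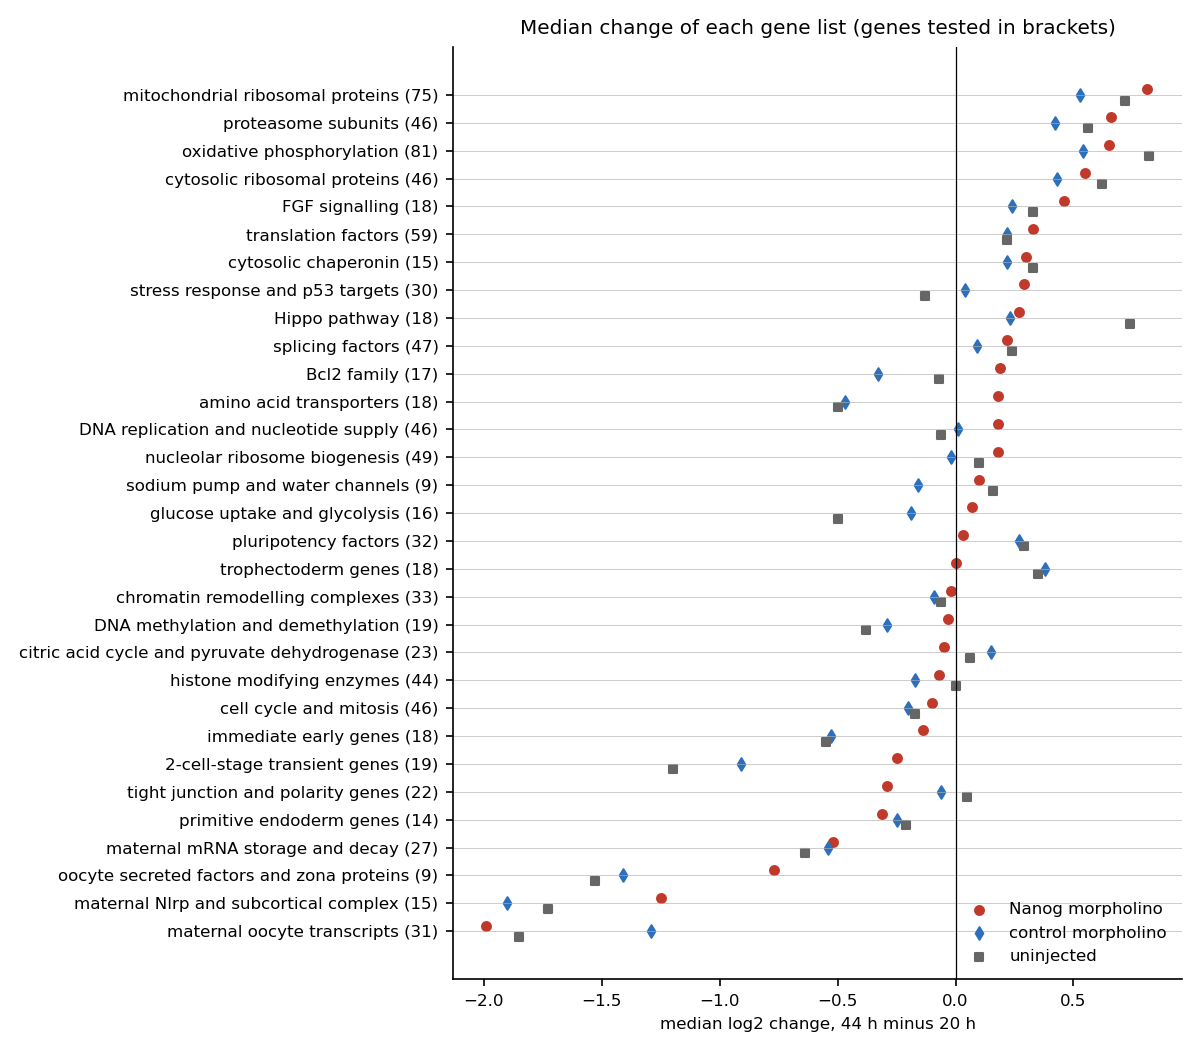
Median log2 change (44 h minus 20 h) over the tested genes of each list, by group. Ribosome, proteasome and oxidative phosphorylation genes lie right of 0 and maternal transcripts left of it in all 3 groups, with the Nanog morpholino nearer to 0 than the references for the 2-cell-stage genes (-0.25) and the oocyte secreted factors (-0.77).

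Of 32 genes of the pluripotency network 6 rose and 6 fell with the Nanog morpholino (median 0.03), 9 and 5 with the control morpholino (0.27), and 8 and 4 in uninjected embryos (0.29). Tdgf1, the Nodal coreceptor Cripto, went from 207, 161 and 128 to 3186, 2997 and 3148 (log2 change 4.13, SE 0.399, adjusted p = 2.92e-05), and with the control morpholino from 264, 308 and 203 to 4938, 5802 and 5831 (4.35). It rose without overlap in both, and every array of 44 h was lower with the Nanog morpholino than with the control morpholino. Esrrb, an orphan nuclear receptor (2.26), and Klf2, a Krüppel-like factor (1.73), rose as in the reference groups (2.14 and 1.62 with the control morpholino). Other probe sets of Esrrb changed by 0.34 and 0.76 with the Nanog morpholino. Sox2 fell (-2.11), as it did with the control morpholino (-1.92), and the RNA-binding L1td1 fell in all groups (-1.30, -1.81 and -2.36). Fgf4, a growth factor of the inner cell mass, went from 419.8, 1288 and 603 to 2377, 1883 and 3992 with the Nanog morpholino (1.90, adjusted p = 0.00244). With the control morpholino Fgf4 read 2317, 3164 and 2287 and then 2965, 1879.9 and 2989.7 (-0.00), so the Nanog morpholino arrays were lower at 20 h and overlapped at 44 h. The difference of the changes was 1.90, adjusted p = 0.146, and 1 of its other probe sets had the opposite sign.

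Klf5, Sall1 and Dnmt3l gave other values than in the reference groups, without passing the test of the difference. Klf5 read 2159, 2577 and 2433 at 44 h with the Nanog morpholino and 4602, 4889.9 and 3811 with the control morpholino, with changes of 0.68 (adjusted p = 0.0535) and 1.59. Sall1, a relative of Sall4, read 26.5, 763 and 2630.2 and 3407, 3873 and 2351 at 44 h, and its arrays were wide apart with the Nanog morpholino (2.78, adjusted p = 0.0877). Dnmt3l, the cofactor of the de novo DNA methyltransferases, fell with the Nanog morpholino (-1.30, adjusted p = 0.011) and changed by -0.30 and -0.38 elsewhere. The adjusted p of the difference from the control change was 0.278 for Klf5, 0.491 for Sall1 and 0.393 for Dnmt3l.

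In the FGF pathway, whose ligand Fgf4 separates epiblast from primitive endoderm, 6 of 18 genes rose and 2 fell with the Nanog morpholino, against 4 and 4 with the control morpholino and 3 and 4 in uninjected embryos. The receptors Fgfr2 (2.67; arrays of 674, 80.3 and 279 and then 1203, 1374 and 2965) and Fgfr3 (1.48) rose in all groups. Another probe set of each receptor changed less with the Nanog morpholino (Fgfr2 by 0.08, Fgfr3 by 0.29). Spry4, a feedback inhibitor, fell in all groups (-2.77, -3.37 and -3.02). Dusp4, a phosphatase of MAP kinases, was called up with the Nanog morpholino (2.03, adjusted p = 0.0399), where 1 array stands high (839, 79.6 and 159.8). Of 18 trophectoderm genes 3 rose and 2 fell (3 and 1, and 3 and 0, in the references). Hand1, a trophoblast factor, went from 63.5, 82.9 and 226 to 556, 1399 and 2056 (3.26, adjusted p = 0.000805), and Tead4, the factor that starts the trophectoderm programme, rose by 1.63. Tfap2a (-3.35) and Klf6 (-3.07) fell at low level. Of 14 primitive endoderm genes 1 rose and 2 fell. Gata6, the factor that specifies this lineage, went from 329, 399.8 and 206 to 699, 2351 and 3379 with the Nanog morpholino (2.50, adjusted p = 0.00179) and from 299, 322 and 287 to 3393, 3849 and 2739 with the control morpholino (3.38). Other probe sets of Gata6 changed by 0.18 and 3.77 with the Nanog morpholino. Dab2, an endocytic adaptor, fell by 2.19 on the log2 scale with the Nanog morpholino and had -0.67 with the control morpholino (adjusted p of the difference 0.173). In uninjected embryos Dab2 was called down as well (-1.48, adjusted p = 0.00306; adjusted p of the difference 0.529). Nid2 of the basement membrane changed by -1.67 with the Nanog morpholino and by -1.58 with the control morpholino. Of 3 other probe sets of Dab2, 1 had the opposite sign (0.11).

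Of 18 Hippo pathway genes, which pass on cell position through the kinases Lats1 and Lats2, 4 rose and 2 fell with the Nanog morpholino, against 4 and 3 with the control morpholino and 6 and 3 in uninjected embryos. Amotl2, an angiomotin, went from 157, 164 and 193 to 1070.0, 487 and 2125 (2.49) and from 149, 162 and 148 to 2979, 4118 and 3049.6 with the control morpholino (4.31; adjusted p of the difference 0.208). At 44 h every Amotl2 array of the Nanog morpholino was lower than every control array. Lats2 rose by 2.05 with the Nanog morpholino, by 3.25 with the control morpholino and by 2.02 in uninjected embryos. Tead3 (0.47, adjusted p = 0.595) stayed low with the Nanog morpholino at 65.2, 36.5 and 33.7 and read 439, 227 and 615 with the control morpholino at 44 h. Of 22 genes of tight junctions and polarity 1 rose and 6 fell, against 4 and 5 in each reference group. Cldn6 (-1.81) and Pard3 (-2.94) fell with the Nanog morpholino and with the control morpholino (-1.78 and -1.66). The junction proteins Cldn4 (1.87, adjusted p = 0.154), Cldn7 (2.01, adjusted p = 0.0837) and Ocln (-0.92, adjusted p = 0.103) were called up in both reference groups and not with the Nanog morpholino. Cldn7 read 116, 1307 and 2288 at 44 h with the Nanog morpholino, 1 array at the level of 20 h, and 2252, 2336 and 3091 with the control morpholino. The low Cldn7 array, replicate 1, was also the lowest of its group for Cldn4, Sall1, Khdc3, Gata6, Hand1, Hk2, Ndufs4 and Bad. It was not the lowest for Ocln, Amotl2 or Tead3. The part of this array in these changes was not tested. Ocln read 393, 227 and 591 and 2004, 1842 and 2039, with no overlap at 44 h, but its other probe set changed in the opposite direction. The adjusted p of the difference from the control change was 0.43 for Cldn4, 0.666 for Cldn7 and 0.134 for Ocln. Of 9 sodium pump and water channel genes 1 rose, the water and glycerol channel Aqp3, from 305, 409 and 955 to 1802, 2698 and 3670.2 (2.37).

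In the citric acid cycle list 4 of 23 genes rose and 4 fell. Idh3b (2.47) and Suclg1 (2.67), enzymes of the cycle, rose in all groups, and Pdk1, which switches pyruvate dehydrogenase off, fell in all groups (-1.84, -2.61 and -3.12). Suclg2, the GTP-forming subunit of succinyl-CoA ligase, went from 908, 928 and 1638 to 44.4, 98.6 and 248 with the Nanog morpholino (-3.21, adjusted p = 0.00242) and from 419, 546 and 672 to 938, 1520.0 and 976 with the control morpholino (1.04, not called). The times do not overlap in either group, and the difference was -4.25, adjusted p = 0.0697. Of 16 genes of glucose uptake and glycolysis 0 rose and 2 fell with the Nanog morpholino, against 3 and 5, and 2 and 6, in the references. The transporter Slc2a1 (-1.62) and Ldhb (-0.80) fell. Hk2, which commits glucose to the cell, rose from 529, 471 and 935 to 2758, 3628 and 4224 with the control morpholino and read 1264, 779.9 and 473 and then 944, 2781 and 4325 with the Nanog morpholino (1.52, adjusted p = 0.0951). Pfkp, a phosphofructokinase, fell by 2.06 on the log2 scale with the control morpholino and had a change of 0.29 with the Nanog morpholino (adjusted p of the difference 0.115), with another probe set of the opposite sign. Of 18 amino acid transporters 1 rose and 2 fell, against 2 and 7, and 3 and 6. Slc7a6 rose from 125, 518 and 109 to 2516, 2862 and 2856 (3.71). The glutamine carrier Slc1a5 read 3775, 1638 and 2107 at 44 h with the Nanog morpholino and 122, 81.1 and 361 with the control morpholino (changes 0.98 and -2.58, adjusted p of the difference 0.154). The cystine carrier Slc7a11 changed by -0.58 (adjusted p = 0.715) and by -2.88.

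Among 30 genes of stress response and p53, 4 rose and 2 fell with the Nanog morpholino, 3 rose and 11 fell with the control morpholino, and 5 rose and 8 fell in uninjected embryos. Gadd45a, a stress gene induced by DNA damage, read 4002, 4494 and 4584 at 20 h and 4728, 4083 and 2343 at 44 h with the Nanog morpholino (-0.29, adjusted p = 0.739). With the control morpholino it read 5438, 4796 and 5586 and then 1038, 142 and 359.9 (-3.73), and the uninjected change was -3.48. At 44 h its levels with the Nanog morpholino lie above all reference arrays, and the differences of 3.45 and 3.19 had adjusted p of 0.075 and 0.0924. Gadd45b changed by 0.38 against -2.44, with both other probe sets of opposite sign. The heat shock gene Hspa1a changed by -0.26 (adjusted p = 0.72) against -1.83, and Hmox1, haem oxygenase, rose with the Nanog morpholino (1.46, adjusted p = 0.0105) and had 0.12 with the control morpholino. Txnip, an inhibitor of thioredoxin, fell in all groups (-1.54, -2.67 and -2.13).

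Of 18 immediate early genes 1 rose and 1 fell, against 1 and 5, and 2 and 6. Egr1 fell in all groups (-2.01 with the Nanog morpholino). Fos, part of the factor AP-1, rose from 16.8, 19.8 and 37.9 to 157, 702 and 205 with the Nanog morpholino (2.92, adjusted p = 0.0267) and read 12.7, 10.4 and 18 at 44 h with the control morpholino (adjusted p of the difference 0.309). Ier5 read 3688, 4915 and 3229 and then 4865, 2224 and 4323, with overlap, while in uninjected embryos it fell from 2992, 2306 and 4698 to 90.7, 85.3 and 211. Its difference passed the test against uninjected embryos (4.46, SE 0.745, adjusted p = 0.0273) and not against the control morpholino (3.74, adjusted p = 0.0659). Myc, which rose in both reference groups (2.21 and 2.81), read 474, 721 and 539 and then 247, 569.8 and 708 with the Nanog morpholino (-0.28, adjusted p = 0.717; adjusted p of the differences 0.14 and 0.0743). Of 17 Bcl2 family genes, which govern cell death, 2 rose and 3 fell, against 3 and 4 in each reference group, with Bad at 2.21, its arrays overlapping between times, and Bik at -3.71.

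Of 19 genes of DNA methylation 2 rose and 3 fell, against 2 and 7 in each reference group. Tet2, which oxidises methylcytosine, went from 256, 44.8 and 30.2 to 760.1, 1291 and 1432 (3.64), and another of its probe sets changed by 0.42. Dnmt3b, a de novo methyltransferase, went from 1856, 1539 and 3415 to 801, 1211 and 253 with the Nanog morpholino (-1.74, adjusted p = 0.0152) and from 1393, 925 and 1993 to 2572, 2701 and 2308 with the control morpholino (0.87, not called), so the 44 h arrays do not overlap. The difference was -2.61, adjusted p = 0.122, and another probe set of the gene had the opposite sign. Tet3, the dioxygenase of the zygote (-0.66, adjusted p = 0.0965), and Uhrf1 (-0.62, adjusted p = 0.295) were called down in both reference groups and not with the Nanog morpholino. Another probe set of Uhrf1 changed by 0.07 with the Nanog morpholino. Uhrf2 read 414, 376 and 474 and then 1350.3, 874 and 638, and 770.4, 1156 and 591 and then 201, 188 and 256 in uninjected embryos. Its difference was 2.94, adjusted p = 0.0483 against the uninjected and 2.89, adjusted p = 0.0627 against the control change, with another probe set of opposite sign.

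In the cell cycle list 2 of 46 genes rose and 9 fell, against 1 and 11, and 3 and 10. E2f1, which drives the entry into DNA synthesis, went from 7504, 7136 and 7616 to 4117, 4697 and 4089 (-0.79, adjusted p = 0.00241), and from 7144, 7085 and 7646 to 1431, 1585 and 2063 with the control morpholino (-2.11). It fell in both, less with the Nanog morpholino, by a difference of 1.33, SE 0.212, adjusted p = 0.0348 (against uninjected embryos 1.03, adjusted p = 0.0713). Cdk4 (2.09) rose and Rb1 (-2.41) fell in all groups, and Cdkn2c, an inhibitor of Cdk4, fell with the Nanog morpholino (-1.97). Of 46 replication genes 6 rose, among them Pold2 (2.40), and 2 fell, one of them Orc5 of the origin recognition complex, from 3278, 3341 and 3309.5 to 557, 631 and 1689 (-1.95; control change -0.34). Of 44 histone modifying enzymes 5 rose and 7 fell. Ehmt2, the H3K9 methyltransferase G9a, rose in all groups (3.04, 2.82 and 3.08), and the acetyltransferase Kat7 fell with the Nanog morpholino (-1.16, adjusted p = 0.011; control change 0.39, another probe set of opposite sign). Another probe set of Ehmt2 changed by 0.17 with the Nanog morpholino. Of 33 genes of chromatin remodelling complexes 1 rose and 5 fell. Over all genes tested 10.0% rose and 13.3% fell with the Nanog morpholino, and counts near those shares are no result about a list.

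The difference between the changes, tested gene by gene, passed the threshold for few genes. Against the control morpholino 14 genes changed to higher values with the Nanog morpholino (0.110% of those tested) and 6 to lower (0.0471%), where a higher value can be a smaller fall. Against uninjected embryos 33 were higher (0.259%) and 7 lower (0.0549%). Both tests use the same Nanog morpholino arrays, so a gene found by both is not found independently. At an unadjusted p under 0.05 the differences numbered 1595 and 1709. The counts rest on single arrays. Without replicate 3 of the Nanog morpholino at 44 h they were 77 and 93, without its replicate 3 at 20 h 3 and 9, and without its replicate 1 at 20 h 3 and 17. The count against the control was 2, 9 and 12 without control replicate 1, 2 or 3 at 20 h, and 45 without control replicate 3 at 44 h. That against uninjected embryos was 18 and 19 without their replicate 1 or 3 at 20 h, 14 without their replicate 1 at 44 h, and 25 without replicate 2 of the Nanog morpholino at 20 h. Of the 39 differences named here, 7 kept their call whichever array was left out. On simulated data at these gene spreads, 200 of 12747 genes were given known changes. Of those with a log2 change of 2, 36% were called as a difference between changes and 67% in the change over time. For a log2 change of 1 the shares were 17% and 35%. The arrays gave 2978 called genes over time with the Nanog morpholino, so these shares describe the simulated data only. The share of real changes that is called on the arrays was not tested.

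**Figure D4:**
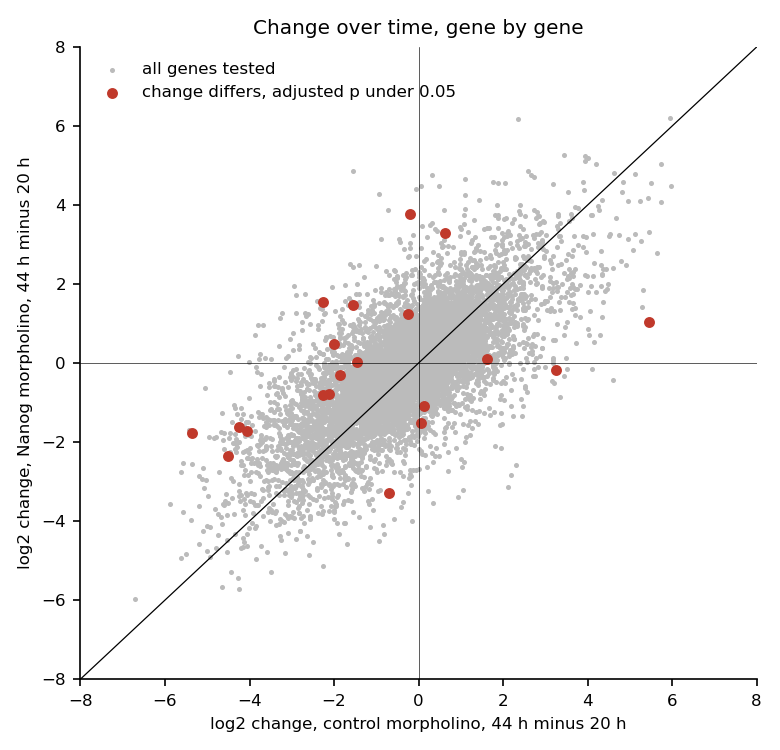
Log2 change (44 h minus 20 h) of each of 12747 genes with the control morpholino (horizontal) and with the Nanog morpholino (vertical). Red points are the 20 genes whose changes differ at an adjusted p under 0.05, 14 above and 6 below the diagonal of equal change.

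Several of these were genes that were nearly lost in the reference groups and only partly lost with the Nanog morpholino. Amer1, an inhibitor of Wnt signalling, read 2656, 2896 and 2578 at 20 h and 945, 1281 and 542 at 44 h with the Nanog morpholino, and 2417, 2158 and 3292 and then 102, 205 and 82.7 with the control morpholino. It fell in both, and every Nanog morpholino array at 44 h was above every control array (difference 2.62, SE 0.44, adjusted p = 0.0402). Grm2, a metabotropic glutamate receptor, had the same pattern, with 2398, 1854 and 1137 at 44 h against 319, 263 and 269.5 (difference 2.34, SE 0.369, adjusted p = 0.0348). Rbm38, an RNA-binding target of p53, read 496, 1084 and 677 against 175, 112 and 127 at 44 h (difference 2.16, adjusted p = 0.0348). Against the uninjected change the differences of these 3 genes were 2.38, 2.16 and 1.46 (adjusted p of 0.0412, 0.0284 and 0.105). Another probe set of Amer1 changed by -0.14 with the Nanog morpholino, against -1.62 for the one tested. Mafk, a small Maf factor, and Zfp639, a zinc finger gene, fell with the control morpholino and were not called with the Nanog morpholino (changes of 0.49 and -0.30). Their differences from the control change were 2.50, adjusted p = 0.0426 and 1.55, adjusted p = 0.0402. Those from the uninjected change were 1.42 and 0.53 (adjusted p of 0.171 and 0.409), not past the threshold.

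Others rose with the Nanog morpholino, by a change that differed from those of the reference groups. Ppp1r3c, which brings protein phosphatase 1 to glycogen, read 46.8, 39.8 and 36.2 at 20 h and 560.5, 727 and 1061 at 44 h. In control embryos it read 72.7, 58.9 and 115 and then 55.4, 53.6 and 98.5, and in uninjected embryos 57.2, 86.7 and 249 and then 83.8, 102 and 107. The 44 h arrays with the Nanog morpholino stand above all others, and the differences were 3.97, SE 0.557, adjusted p = 0.0176 against the control and 3.92, adjusted p = 0.0101 against the uninjected change. Heg1, a membrane protein of heart and vessel development, read 484, 140.0 and 514 at 44 h against 45.5, 43.6 and 34.4 with the control morpholino and 23.7, 24.2 and 20.9 in uninjected embryos (differences 2.66, adjusted p = 0.0464 and 3.17, adjusted p = 0.0147). Zbtb5, a zinc finger repressor, rose from 382, 569 and 279 to 923, 1031 and 1487 with the Nanog morpholino and fell from 1897, 2148 and 2507 to 851, 769 and 602 with the control morpholino. Its groups differed at 20 h, where all Nanog morpholino arrays were lower, more than at 44 h (difference 3.02, SE 0.483, adjusted p = 0.0348, and 2.97, adjusted p = 0.0243 against the uninjected change). The probe set annotated Fbxl12os, an opposite-strand transcript, rose (1.55) and fell with the control morpholino (-2.26), a difference of 3.80, adjusted p = 0.00612, but was not told apart from the uninjected change (1.42, adjusted p = 0.186).

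Genes with a lower change were fewer. P2ry14, the receptor of UDP-glucose, came up from 2.18, 5.57 and 1 to 1012, 506 and 1011 with the control morpholino and read 4.42, 7.48 and 3.54 and then 34.8, 19.3 and 30.1 with the Nanog morpholino, close to the floor (difference -4.40, SE 0.757, adjusted p = 0.0402). Slc12a7, a potassium-chloride cotransporter, rose from 108, 143 and 131 to 1625, 753 and 1985 with the control morpholino and read 162, 94.4 and 113 at 44 h with the Nanog morpholino (difference -3.44, adjusted p = 0.0426). Its change with the Nanog morpholino was -0.18, and that of another probe set 0.12, both near 0. For P2ry14 and Slc12a7 the differences from the uninjected change were -2.23 and -2.0 (adjusted p of 0.216 and 0.165), not past the threshold. Chdh, choline dehydrogenase, fell from 1575, 1803 and 2106 to 644, 643 and 584 with the Nanog morpholino, and its control arrays read 386, 418 and 543 and then 526, 507 and 371. The Nanog morpholino arrays of Chdh were thus higher at 20 h and near the controls at 44 h (differences -1.57, adjusted p = 0.0426 and -1.80, adjusted p = 0.015). Zfp212 (-2.61, adjusted p = 0.0402), the annexin Anxa3 (-1.53, adjusted p = 0.0402) and the deubiquitinase Mindy1 (-1.22, adjusted p = 0.0473) complete the lower differences from the control, and their differences from the uninjected change were -1.75, -0.54 and -0.73, none past the threshold. Of 6 other probe sets of Mindy1, 1 changed the opposite way with the Nanog morpholino (1.51).

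**Figure D5:**
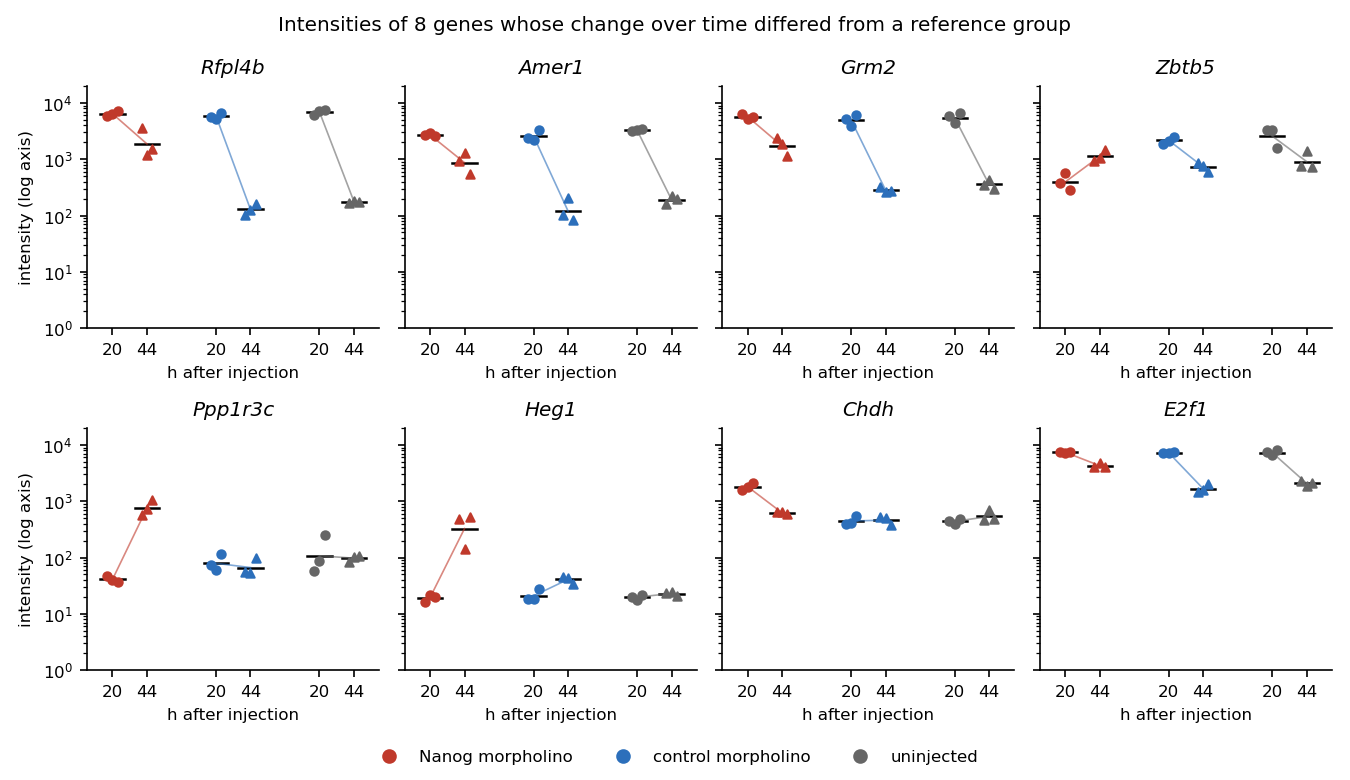
Intensity of 8 genes on each array, on a log axis, by hours after injection. Circles are arrays of 20 h, triangles arrays of 44 h, and black bars geometric means of 3 arrays. Rfpl4b, Amer1 and Grm2 fell less and Ppp1r3c and Heg1 rose with the Nanog morpholino, while Zbtb5 and Chdh differed mostly at 20 h. E2f1 passed the test against the control morpholino only.

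Against uninjected embryos further genes changed to higher values, by a smaller fall or by a rise. Mcu, the pore of the mitochondrial calcium uniporter, read 2157, 3567 and 1908 at 44 h with the Nanog morpholino and 48.8, 98.2 and 297 in uninjected embryos (difference 4.15, SE 0.64, adjusted p = 0.015), with the control morpholino between them at 641, 645 and 1417. Nrarp, a feedback inhibitor of Notch, read 2837, 4045 and 4097 and 296, 440.4 and 194 (difference 3.69, adjusted p = 0.00741), again with control arrays between (935, 644 and 1419). Its change with the Nanog morpholino was -0.11, and that of its other probe set 0.15, both near 0. Sycp2 of the synaptonemal complex (3.76, adjusted p = 0.0358), Fam72a (3.75, adjusted p = 0.0358), Itgb4, an integrin of hemidesmosomes (3.49, adjusted p = 0.0351), the repressor Zgpat (3.44, adjusted p = 0.00337) and 5033430I15Rik (3.39, adjusted p = 0.0483) were higher. Their differences from the control change were 1.04, 2.82, 2.11, 1.87 and 3.27, and none passed the threshold.

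Lower against uninjected embryos was Dusp11, an RNA phosphatase, which rose from 159.6, 276 and 139 to 4299, 3529 and 1044 without injection and read 1053, 985 and 1763 and then 235, 615 and 1206 with the Nanog morpholino (difference -4.76, SE 0.799, adjusted p = 0.0273). Its arrays overlap between the times with the Nanog morpholino, and another probe set had the opposite sign. The actin-binding Mtss1 (-3.94, adjusted p = 0.0358), Ssbp2, a cofactor of LIM-domain complexes (-2.91, adjusted p = 0.0273), the zinc finger gene Hivep1 (-2.15, adjusted p = 0.0356), the Golgi adaptor Gga2 (-1.66, adjusted p = 0.00772) and the KH-domain gene Khdc1a (-1.14, adjusted p = 0.049) were also lower. Khdc1a read 2528, 4171 and 3102 at 44 h with the Nanog morpholino and 5823, 6924 and 6545 with the control morpholino, with no overlap (difference -1.02, adjusted p = 0.08). Of Mtss1, 2 of 4 other probe sets changed the opposite way.

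Among the genes called in both reference groups, those with the Nanog morpholino value farthest from the references had wide spreads, and of these 20 genes only P2ry14, Dusp11 and Ier5 passed a test of the difference. Of the rises, Idh1, the cytosolic isocitrate dehydrogenase, read 97.5, 3681 and 328 at 20 h and 90.6, 487 and 1994 at 44 h with the Nanog morpholino, so 1 array of 20 h was higher than all of 44 h. In control embryos it read 444, 148 and 394 and then 4037, 2799.8 and 4117 (3.52). Septin8, of the septin filaments, changed by 1.84 against 5.32 and 5.64, and the vesicle fusion protein Stx8 by -0.41 against 2.25 and 3.28. The receptor Notch4 had 0.38 against 2.91 and 4.05, and the probe set annotated to the Mir1949 gene -0.14 against 4.11 and 4.65, which shows nothing of the mature miRNA. Sall1, Cldn4, P2ry14, Dusp11 and Ccr4, described above, make up the 10.

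Of the falls, Tubb3, a beta tubulin, read 3887, 2939 and 4009 and then 3983, 2983 and 1002 with the Nanog morpholino (-0.64, adjusted p = 0.527) and 2056, 1923 and 4693 and then 34.5, 24.6 and 238 with the control morpholino (-5.05). At 44 h the groups do not overlap, and the difference of 4.41 had an adjusted p of 0.075. Fam43a read 1411, 1464 and 1307 at 44 h with the Nanog morpholino and 56.9, 69.8 and 84 with the control morpholino (difference 3.86, adjusted p = 0.075). The zinc finger gene Zfp280c read 923, 1177 and 1240.2 and 117, 80.2 and 144 (difference 4.15, adjusted p = 0.0805), and the membrane protein Tmem129 differed by 3.95, adjusted p = 0.115. The prostaglandin receptor Ptger4 (-0.22 against -4.47), A630072M18Rik (0.17 against -4.28), 1700001L05Rik (0.02 against -4.01) and the homeobox gene Homez (0.09 against -3.48) had Nanog morpholino changes near 0 with arrays that overlap between times. Ier5 and Slc1a5 are the remaining 2 of the 10. Of the 322 rises and 809 falls shared by the references and not called with the Nanog morpholino, 4 and 16 passed the test of the difference against at least 1 reference group.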

How the data were processed

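RNA of preimplantation embryos was extracted with PicoPure columns, amplified and labelled with NuGEN Ovation kits and hybridised to Affymetrix arrays, per the labels' protocols. The authors deposited a table of intensity values per probe set on a linear scale, and the sources used here do not give the background correction, summary and scaling behind them. The 24 arrays of other experiments are on another scale (medians of 26.1 to 33.3, against 193 to 227), so only the 18 of the Nanog experiment entered the fit.

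Values were used as deposited and taken as log2(intensity + 16). Of 45101 probe sets, 34945 carry 1 gene symbol in the platform annotation, 932 several and 9160 none, and those with several or none were left out. Each of 18193 genes was read from its probe set with the highest mean. Genes with a mean log2 value above log2(206.94 + 16), the median of all values, in at least 1 of 6 groups were tested, which left 12747. limma 3.58.1 in R 4.3.3 was fitted with 1 mean per group (12 residual degrees of freedom, 1.83 prior), eBayes, two-sided tests and Benjamini-Hochberg adjustment over all genes tested. The contrasts were 44 h minus 20 h in each of the 3 groups, and the Nanog morpholino change minus each reference change. No depth is known for arrays; their number limits the precision.

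Nanog, Pou5f1 and Sall4 were named always. The other named genes are the 12 largest rises and 12 largest falls called with the Nanog morpholino without overlap between times, up to 10 called differences per direction and reference, and, among genes called the same way in both references, the 10 per direction whose Nanog morpholino change was farthest from the mean of the reference changes. Members of the gene lists could be named as well, those with the largest called change first. E2f1 and Uhrf2 were named in addition, as list members with a called difference. The genes and the 34 lists were chosen with earlier results of these data known.

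Replicate numbers did not pair the arrays, since the correlations of same-numbered deviations lay between -0.0339 and 0.09. Alternatives were other pseudocounts (1 and 64), 3 scalings, other filters, the mean of a gene's probe sets, all 42 arrays, only the arrays compared, array weights, the replicate number as a block and each array left out. The script was tested on simulated data with 200 changed genes. Promoters are the 250 bases before the start in the RefSeq table of GRCm38.p6, searched in Python 3.11.15.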

Additional observations from a re-analysis of the deposited data

Results flagged for a closer look

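A test of the difference itself set these genes apart: the change from 20 h to 44 h with the Nanog morpholino minus that of a reference group had an adjusted p under 0.05 in limma. Each value is a difference of log2 changes over 3 arrays per group and time. Only genes named in the results are listed, of 20 called against the control morpholino and 40 against uninjected embryos. Against the control morpholino the difference was above 0 for Ppp1r3c (3.97), Fbxl12os (3.80), Rfpl4b (3.58), Zbtb5 (3.02), Heg1 (2.66), Amer1 (2.62), Mafk (2.50), Grm2 (2.34), Rbm38 (2.16), Zfp639 (1.55) and E2f1 (1.33). It was below 0 for P2ry14 (-4.40), Slc12a7 (-3.44), Zfp212 (-2.61), Chdh (-1.57), Anxa3 (-1.53) and Mindy1 (-1.22). Against uninjected embryos it was above 0 for Ier5 (4.46), Mcu (4.15), Ppp1r3c (3.92), Sycp2 (3.76), Fam72a (3.75), Nrarp (3.69), Itgb4 (3.49), Zgpat (3.44), Rfpl4b (3.40), 5033430I15Rik (3.39), Heg1 (3.17), Zbtb5 (2.97), Uhrf2 (2.94), Amer1 (2.38) and Grm2 (2.16). It was below 0 for Dusp11 (-4.76), Mtss1 (-3.94), Ssbp2 (-2.91), Hivep1 (-2.15), Chdh (-1.80), Gga2 (-1.66) and Khdc1a (-1.14). Of the 9 genes called against both references, those listed here are Ppp1r3c, Rfpl4b, Heg1, Zbtb5, Amer1, Grm2 and Chdh. Both tests share the Nanog morpholino arrays. The call held under every alternative run for 5 of these 39 differences: Fbxl12os against the control morpholino, and Nrarp, Ppp1r3c, Rfpl4b and Zgpat against uninjected embryos.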

How the results depend on the processing

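The genes changed over time with the Nanog morpholino numbered 2978, and 1500 when only the 6 arrays compared estimate the spread. The replicate number as a block gave 3111, 3831 and 4196 genes over time with the Nanog morpholino, with the control morpholino and in uninjected embryos, 19 and 37 differences from those references, and 567 rises and 1188 falls shared by all 3, so it moved no count by over 1.5 times. The pairing check is in the methods. Differences from the control morpholino numbered 20 as reported, 9 with median centring, 11 with quantile normalization, 4 with no filter, 55 with a filter at the 75th percentile, 65 with the mean of a gene's probe sets, 128 with all 42 arrays and 6 with only the arrays compared. Differences from uninjected embryos numbered 40 as reported, 23 with median centring, 25 with quantile normalization or array weights, 71 with the 75th percentile, 67 with the mean of probe sets and 147 with all 42 arrays. Rises shared by all 3 groups numbered 891 under quantile normalization and 206 with only the arrays compared, and shared falls 525 with the latter. The 42-array fit pools the spread over 2 intensity scales, and the 75th percentile tests fewer genes. For the rest the cause was not tested. With each array left out in turn, the counts ranged from 2249 to 2816 with the Nanog morpholino, 2633 to 3146 with the control morpholino and 3142 to 3803 in uninjected embryos. The shared rises ranged from 382 to 520 and the shared falls from 845 to 1084, and the differences from 2 to 77 and from 9 to 93. Of 129 named calls over time, 78 held under every alternative run and 0 reversed, and of 39 named differences 5 held and 0 reversed.

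Reversals occurred in genes not called with the Nanog morpholino. Sall4 was 0.03 under quantile normalization and 0.01 under trimmed mean scaling, and the mean of probe sets gave 0.59 for Ocln, -0.10 for Gadd45b, 0.02 for Ier5 and Nrarp and 0.19 for Ptger4. With 1 array left out, the change ranged from -0.14 to 0.02 for Sall4, -0.49 to 0.01 for Gadd45a, -0.32 to 0.24 for Ier5, -0.58 to 0.15 for Myc, -0.01 to 0.18 for Anxa3, -0.28 to 0.06 for Nrarp, -1.24 to 1.27 for Idh1, -0.97 to 0.90 for the Mir1949 probe set, -1.20 to 0.21 for Stx8, -0.56 to 1.53 for Notch4, -1.13 to 1.17 for A630072M18Rik, -0.70 to 0.35 for Ptger4, -0.60 to 0.56 for 1700001L05Rik and -0.65 to 0.97 for Homez. Signals near the floor limit what dim genes can show.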

Other observations

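A single value of the table stands far above the others: a probe set with no gene symbol read 133546 on 1 Nanog morpholino array of 20 h. It entered no test.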
